A study of Mus musculus with 273 samples.

Results

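Liver microRNAs (miRNAs) were compared between ZT0 and ZT12, opposite points of the daily cycle that stand, by convention, for the end of the active night and the end of the rest phase of a nocturnal mouse. The groups were taken from the time named in each library's label, which gave 12 libraries at ZT0 and 12 at ZT12, 24 of the 77 liver libraries and of the 273 libraries of the series. All came from wild-type male mice of the inbred strain C57BL/6J at an age of 26 weeks, with no treatment named in the labels. ZT is zeitgeber time, the hours since lights on, and the labels do not state the lighting schedule. Each group joins a pair of collections from the 36 h series. ZT0 holds 6 libraries from 0 h and 6 from 24 h, and ZT12 holds 6 from 12 h and 6 from 36 h, so that the contrast was measured in a first passage (0 h against 12 h) and again in a second (24 h against 36 h). The 77 liver libraries carried 77 different animal codes, and none was shared between the groups.

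A miRNA is cut from a hairpin transcript to a mature strand that is loaded into an Argonaute protein, and its bases 2 to 8, the seed, pair with messenger RNAs and lower their translation or stability. The liver clock drives daily programmes of feeding, bile acid, lipid and glucose metabolism, and several miRNAs are reported to act on transcripts of the clock. Mature miRNAs are often long-lived, so that a rhythm in the making of a hairpin need not show in the level of its product.

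The sequences that the account turns on are given first, 5′ to 3′, from RefSeq (GRCm38.p6), with the seed in capitals. miR-192 is shown because it held the largest share of liver counts. miR-193a, its seed partner miR-193b, and miR-365, from a hairpin near miR-193a, are shown because they lie around the largest ratio among abundant miRNAs. The miR-29 strands are shown because a single hairpin of that family stood apart, and miR-130a and miR-301a because they share a seed. miR-146a and miR-326 had the smallest p on the lower and the higher side among miRNAs at 10 CPM or more.
miR-192-5p: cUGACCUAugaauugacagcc
miR-193a-3p: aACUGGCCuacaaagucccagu
miR-193b-3p: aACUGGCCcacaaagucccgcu
miR-365-3p: uAAUGCCCcuaaaaauccuuau
miR-29a-3p: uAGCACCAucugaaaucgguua
miR-29b-3p: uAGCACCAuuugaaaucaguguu
miR-29c-3p: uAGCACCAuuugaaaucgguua
miR-130a-3p: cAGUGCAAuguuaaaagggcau
miR-301a-3p: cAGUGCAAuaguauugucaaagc
miR-326-3p: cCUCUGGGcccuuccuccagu
miR-146a-5p: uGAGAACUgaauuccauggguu
The counts are given per hairpin and add both arms. The strand shown is the arm usually taken as the main product, and which arm was read is not given by these counts.

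Totals ran from 1988671 to 3789804 counts at ZT0 and from 2365844 to 5236177 at ZT12, with no detectable difference in mean log2 total (-0.19, ZT0 minus ZT12; two-sided permutation test, p = 0.154). Levels are given in CPM, the count divided by the library total and scaled to a common total. A library with 0 counts of a miRNA may hold up to 3, or 0.573 to 1.51 CPM over the 24 libraries, for counting error only. No pair of libraries within a group agreed to within sampling noise. Hepatocyte markers (miR-122, miR-192, miR-194-2, miR-148a and miR-802) summed to a median of 407126 CPM at ZT0 and 404794 at ZT12. All 6 hairpins of the neuronal miR-124 and miR-9 had 0 counts in all 24 libraries. The labels also hold an L code, whose meaning is not stated. It was L8 for 6 ZT0 and 4 ZT12 libraries, L1 for 1 and 2, L2 for 2 and 2, L3 for 2 and 3, and L4 for 1 and 1.

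The major liver miRNAs stood at the same share of counts at both times, within the spread of the libraries. miR-192, an abundant hepatocyte miRNA, took 28.8% ± 2.21 (SD, n = 12) of the counts at ZT0 and 28.5% ± 2.78 (n = 12) at ZT12. miR-22 took 17.5% ± 1.47 and 17.1% ± 1.22, and miR-148a, which is known to act on the low-density lipoprotein receptor, took 9.62% ± 0.853 and 9.65% ± 0.501. The 10 most abundant miRNAs together took 83.8% ± 0.683 at ZT0 and 83.6% ± 0.893 at ZT12. These are shares of the counts as deposited and carry no correction for hairpin length or for how well a sequence is captured.

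miR-122, the classical liver miRNA, whose hairpin transcript is reported to cycle under the nuclear receptor REV-ERBα while its mature form stays level, was determined closely. It ran from 19418 CPM through a median of 21710 to 24972 at ZT0, and from 18390 through 22041 to 25128 at ZT12. The groups overlapped over most of their range. The fitted log2 ratio, ZT0 over ZT12, was 0.02 ± 0.04 (SE), and its 95% interval of -0.05 to 0.10 corresponds to 0.965-fold to 1.07-fold (edgeR quasi-likelihood test, adjusted p = 0.924). For miR-192 the log2 ratio was 0.02 ± 0.07 with an interval of -0.12 to 0.17, and for miR-22 it was 0.05 ± 0.07 with an interval of -0.09 to 0.20.

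Across the 258 hairpins that passed the filter on low counts, no miRNA was called different between ZT0 and ZT12. edgeR's quasi-likelihood test called 0 of 258 (0%) at a Benjamini-Hochberg adjusted p under 0.05, and the smallest adjusted p was 0.497. An unadjusted p under 0.05 was reached by 17 miRNAs (6.59%), where 12.9 would be expected with no difference at all. Of these, 13 (5.04%) were higher and 4 (1.55%) lower at ZT0. DESeq2 also called 0, with 18 at an unadjusted p under 0.05. The median log2 ratio of all 258 was 0.02, with quartiles at -0.06 and 0.11, and no miRNA separated the 12 ZT0 libraries from the 12 ZT12 libraries without overlap.

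**Figure D1:**
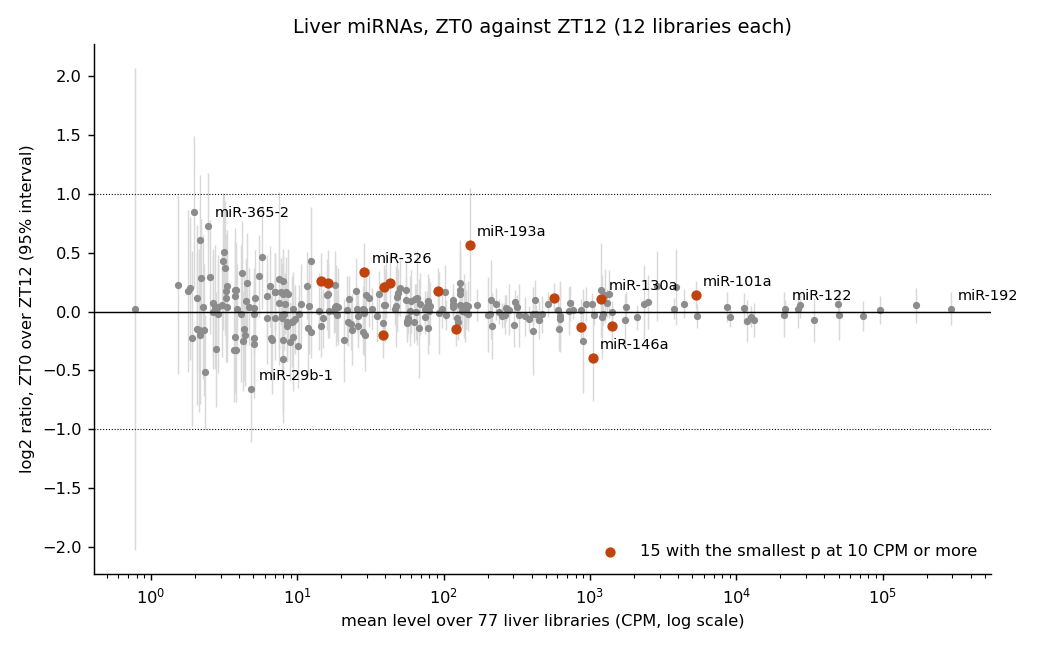
Fitted log2 ratio, ZT0 over ZT12, of each of the 258 tested liver miRNAs (points) with its 95% interval (lines), against the mean level over 77 liver libraries in CPM on a log scale; red points are the 15 with the smallest unadjusted p at 10 CPM or more, and dotted lines mark a 2-fold difference. Points close in on 0 as the level rises, and the largest ratio at 100 CPM or more is 0.57 (miR-193a).

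The 95% intervals give the size of difference that these libraries leave room for. The interval stayed within 2-fold either way for 250 of the 258 miRNAs and within 1.5-fold for 205. Among the 97 miRNAs at 100 CPM or more, 93 stayed within 1.5-fold. The 4 that did not stay within 1.5-fold, named here after their values were seen, were miR-193a, miR-146a, the lymphocyte miRNA miR-150 and the red cell miRNA miR-451a. The precision fell with the level. The median half-width of the interval was 0.14 on the log2 scale at 100 CPM or more, 0.23 between 10 and 100 CPM and 0.44 under 10 CPM, where 37 of 83 stayed within 1.5-fold.

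miR-193a had the largest ratio among the abundant miRNAs, although it missed the adjusted threshold. Its hairpin lies on chromosome 11 (79711969 to 79712034, plus strand), outside annotated genes. The level of miR-193a ran from 69.2 CPM through a median of 245 to 288 at ZT0, and from 70.1 through 123 to 193 at ZT12. In 9 of 12 ZT0 libraries it lay above the ZT12 median, and the ranges overlapped. The ZT12 median fell in a gap between libraries of different L codes. Those of L1 and L8 held 153 to 193 CPM at ZT12, and those of L2, L3 and L4 held 70.1 to 92.5. The medians and the count of 9 therefore depend in part on the mix of L codes. The fitted log2 ratio was 0.57 ± 0.24 (SE), or 1.48-fold with a 95% interval of 1.07 to 2.06 (unadjusted p = 0.0202, adjusted p = 0.666, edgeR).

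The level of miR-193a also moved with the L code. In the L8 libraries it lay between 238 and 288 CPM at ZT0 (n = 6) and between 160 and 193 at ZT12 (n = 4), so that the groups did not overlap there. In L1 the single ZT0 library held 259 CPM and the 2 ZT12 libraries 153 and 181. The L2 libraries were low at both times, with 69.2 and 73.1 CPM at ZT0 against 88.2 and 92.5 at ZT12, the reverse order. In L3 the means were 106 CPM at ZT0 (n = 2) and 81.8 at ZT12 (n = 3), and in L4 the single libraries held 126 and 78.1. With the L code as a term the log2 ratio of miR-193a was 0.42 (unadjusted p = 0.00422, adjusted p = 0.366, edgeR). Other leaders moved with the L code too. At ZT0 the means of miR-326, miR-130a, miR-29c and miR-301a were higher in L8 than in L2, L3 and L4.

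miR-365-2, whose hairpin starts 14366 bases beyond the end of miR-193a on the same strand (chromosome 11, 79726400 to 79726511), had the smallest p of all. It falls under the level at which leading miRNAs were taken for description and was added after its value was seen. miR-365-2 ran from 1.65 CPM through a median of 3.24 to 4.55 at ZT0, and from 1.04 through 1.67 to 4.23 at ZT12, which is 3 to 14 counts per library. Of the 12 ZT0 libraries, 11 lay above the ZT12 median. The log2 ratio was 0.73 ± 0.23 (unadjusted p = 0.00193, adjusted p = 0.497, edgeR), and it was 0.68 with the L code as a term. In this pair the higher mean was at ZT0 for both hairpins. The number in miR-365-2 marks a copy, and reads of a mature strand that another miR-365 hairpin shares can belong to either. How such reads were assigned is not given in the sources used here. miR-193b, which has the same seed as miR-193a (the lines above), stood at 8.91 ± 2.82 CPM at ZT0 and 8.01 ± 1.96 at ZT12.

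**Figure D2:**
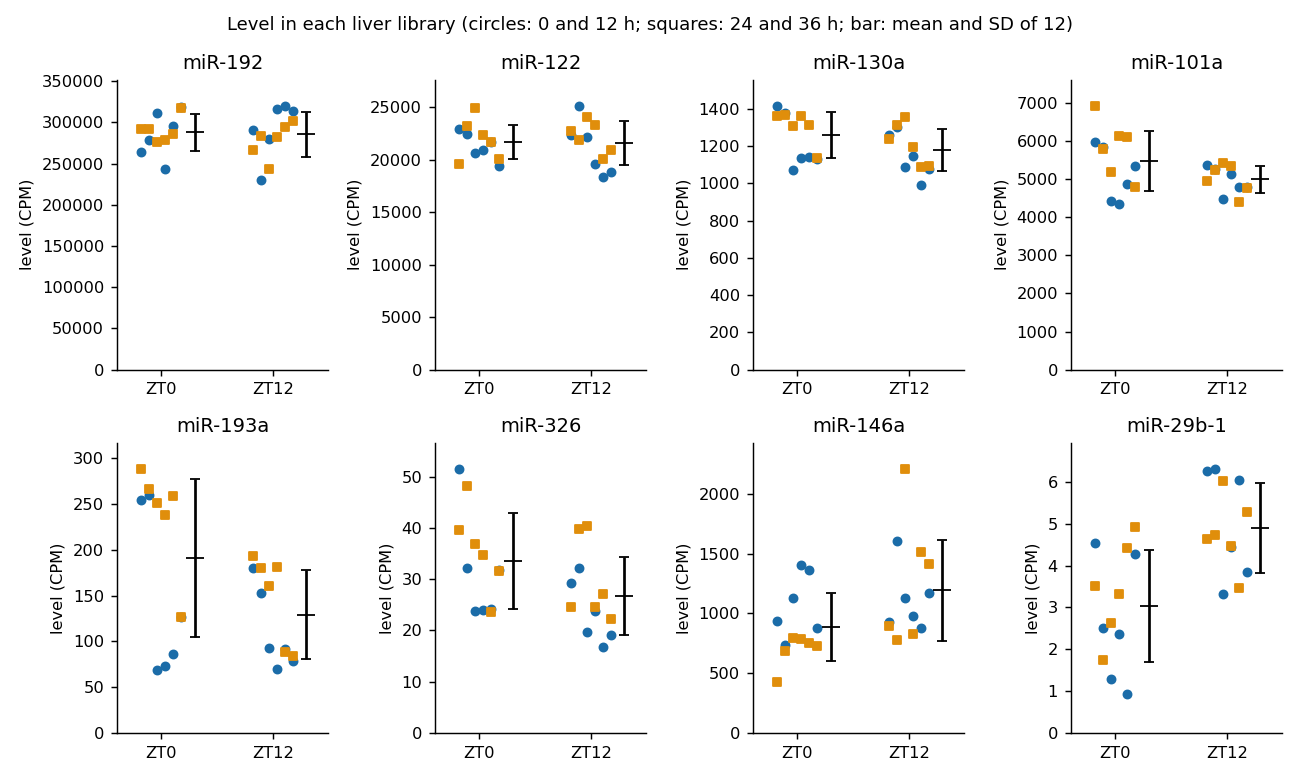
Level in CPM of 8 liver miRNAs in each of the 12 ZT0 and 12 ZT12 libraries (circles, 0 and 12 h; squares, 24 and 36 h), with the mean and SD of each group. miR-192 and miR-122 overlap almost entirely, miR-193a splits into high and low libraries at both times, and in miR-146a the 24 h libraries are low while those of 0 h are not.

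The other leaders on the higher side were small in size. miR-326, in an intron of the β-arrestin gene Arrb1 (chromosome 7, 99552269 to 99552363), ran from 23.6 CPM through 31.9 to 51.4 at ZT0 and from 16.8 through 24.5 to 40.4 at ZT12. Its log2 ratio was 0.33 ± 0.12, or 1.26-fold (unadjusted p = 0.00941, adjusted p = 0.500, edgeR), with 8 of 12 ZT0 libraries above the ZT12 median. Without ZT0 replicate 3, which held 51.4 CPM, the log2 ratio was 0.24 (unadjusted p = 0.0620, edgeR). The median over all tested miRNAs in that fit was -0.02. With the L code as a term the ratio of miR-326 was 0.30. Within the L codes the log2 ratio of its means was -0.27 in L1, 0.03 in L2, 0.42 in L3, 0.72 in L4 and 0.27 in L8. The L1 and L4 values rest on a single ZT0 library each. miR-3105, in an intron of Shank2, ran from 12.7 through 17.2 to 20.6 CPM at ZT0 and from 13.2 through 14.4 to 17.4 at ZT12, and 11 of 12 ZT0 libraries lay above the ZT12 median (log2 ratio 0.24 ± 0.09).

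miR-130a, a member of the miR-130/301 seed family (chromosome 2, 84741115 to 84741178), had a small ratio with a narrow interval. It ran from 1072 CPM through 1310 to 1415 at ZT0 and from 991 through 1171 to 1357 at ZT12. The ratio was 1.08-fold with an interval of 1.02 to 1.14 (log2 ratio 0.11 ± 0.04, unadjusted p = 0.0116, adjusted p = 0.500, edgeR). Without ZT12 replicate 7 the log2 ratio of miR-130a was 0.07 (unadjusted p = 0.139, edgeR), in a fit whose median over all tested miRNAs was -0.01; it was 0.07 too without ZT0 replicate 3 or without ZT12 replicate 5. miR-301a, with the same seed, had a log2 ratio of 0.18 ± 0.09, and miR-130b, the third tested hairpin with that seed, one of -0.07. miR-101a, a liver-enriched miRNA known to lower the histone methyltransferase EZH2, ran from 4355 through 5577 to 6924 CPM at ZT0 and from 4416 through 5055 to 5433 at ZT12, with a log2 ratio of 0.14 ± 0.06, or 0.09 without ZT12 replicate 7. miR-101b, at 8604 ± 845 CPM at ZT0 and 8452 ± 657 at ZT12, had one of 0.04 ± 0.06. The remaining higher leaders, miR-30c-1, miR-592, miR-450b and miR-29c, had log2 ratios between 0.12 and 0.26. Without ZT12 replicate 7 the ratio of miR-29c was 0.06, and without ZT0 replicate 9 that of miR-592 was 0.16. The median over all tested miRNAs was -0.01 in each of these fits. The other tested miR-30c hairpin, miR-30c-2, had a log2 ratio of -0.02, and miR-30e, 2984 bases from miR-30c-1, had -0.08 ± 0.09. Of the tested hairpins close to miR-450b, miR-322 had 0.06, miR-542 -0.03 and miR-503 -0.25.

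On the lower side miR-146a, a feedback inhibitor of innate immune signalling that is induced by NF-κB, came first. Its hairpin lies on chromosome 11 (43374397 to 43374461, minus strand). miR-146a ran from 423 CPM through a median of 792 to 1405 at ZT0, and from 776 through 1053 to 2204 at ZT12. Only 3 of 12 ZT0 libraries lay above the ZT12 median. The log2 ratio was -0.40 ± 0.18, or 0.760-fold with an interval of 0.592 to 0.977 (unadjusted p = 0.0324, adjusted p = 0.666, edgeR), and -0.41 with the L code as a term. Within the L codes the log2 ratio of the miR-146a means was -0.70 in L1, -0.69 in L4 and -0.72 in L8, against -0.06 in L2 and 0.04 in L3. The L1 and L4 values set single ZT0 libraries against 2 and 1 at ZT12. In L8 the groups overlapped, with 423 to 934 CPM at ZT0 (n = 6) and 776 to 2204 at ZT12 (n = 4). The L8 mean at ZT12, 1200 CPM, includes the library at 2204 CPM. With 1 library left out the log2 ratio of miR-146a over all L codes ran from -0.52 to -0.32. The value of -0.32 came without ZT12 replicate 4, an L8 library (unadjusted p = 0.0776, edgeR).

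The other lower leaders were small in size too. miR-195a, of the miR-15/16 family that restrains the cell cycle, stood at 124 ± 12.5 CPM at ZT0 and 140 ± 29.3 at ZT12 (log2 ratio -0.15 ± 0.07). miR-23b stood at 828 ± 59.8 CPM and 921 ± 144, with 1 of 12 ZT0 libraries above the ZT12 median (log2 ratio -0.13 ± 0.07). The unadjusted p of miR-23b was not under 0.05, nor was that of miR-29c or miR-301a among the higher leaders. let-7c-1 and let-7b followed, let-7c-1 with a log2 ratio of -0.20 ± 0.10 and let-7b with -0.12 ± 0.07. The let-7 family is large and known for restraining growth. Over the 11 tested hairpins to which RefSeq gives a mature strand with the let-7 seed, GAGGUAG, the log2 ratios ran from -0.20 to 0.06 with a median of -0.05, and none had an unadjusted p under 0.05. Hairpins transcribed close together did not all lie on the same side. miR-27b, 155 bases from miR-23b, had a log2 ratio of 0.02 ± 0.08, and miR-497a, 242 bases from miR-195a, had 0.05 ± 0.11.

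In the miR-29 family, whose targets include collagens and the clock gene Per1, a single hairpin stood out at a very low level. miR-29b-1 (chromosome 6, 31063023 to 31063093) ran from 0.928 CPM through a median of 2.97 to 4.94 at ZT0, and from 3.33 through 4.70 to 6.30 at ZT12. Only 1 of 12 ZT0 libraries lay above the ZT12 median. The log2 ratio was -0.66 ± 0.22, or 0.633-fold with an interval of 0.466 to 0.861 (unadjusted p = 0.00413, adjusted p = 0.500, edgeR). miR-29a, 276 bases away, stood at 3854 ± 424 CPM at ZT0 and 3843 ± 492 at ZT12, with a log2 ratio of 0.02 ± 0.04. miR-29b-2, which gives the same mature strand as miR-29b-1, had a ratio of 0.06 ± 0.22, and miR-29c, 427 bases from miR-29b-2 on chromosome 1, had 0.12 ± 0.06. Reads of the shared mature strand can belong to either copy, and how such reads were assigned is not given in the sources used here.

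Grouped by function, the miRNAs gave no list in which more than 1 member reached an unadjusted p under 0.05, against 6.59% of all tested. Of the 10 tested liver-enriched miRNAs, 1 (miR-101a) did so on the higher side, the median log2 ratio was 0.02, as over all 258, and the intervals of all 10 lay within 1.5-fold. The widest belonged to miR-802, a miRNA linked to impaired glucose control in obesity, with 398 ± 118 CPM at ZT0 and 454 ± 224 at ZT12 (log2 ratio -0.17 ± 0.19). The ratio of miR-802 was -0.01 without ZT12 replicate 6 and -0.31 without ZT0 replicate 9.

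Of 29 miRNAs reported to act on or with clock transcripts, 26 were tested, 1 (miR-29b-1) had an unadjusted p under 0.05, on the lower side, and the median log2 ratio was 0.02. For 20 of the 26 the interval lay within 1.5-fold. The miR-192 and miR-194 hairpins, reported to act on the Period genes, had log2 ratios of 0.02 ± 0.07 for miR-192, 0.06 ± 0.07 for miR-194-2 and -0.06 ± 0.13 for miR-194-1. The cluster of miR-182, miR-183 and miR-96, known for its daily rhythm in the retina, had 0.22 ± 0.15, 0.18 ± 0.17 and -0.24 ± 0.23. Without ZT0 replicate 9 these were 0.08, 0.04 and -0.40, in a fit whose median over all tested miRNAs was -0.01. miR-132 and miR-212, light-induced in the central clock of the brain, had -0.20 ± 0.15 and 0.13 ± 0.18, and miR-219a-1, another brain clock miRNA, stood at 9.02 ± 1.72 CPM at ZT0 and 8.98 ± 1.88 at ZT12. miR-219a-2, miR-433 and miR-494 were too low to test, with mean levels of 0 to 0.308 CPM at both times.

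Among 13 tested miRNAs of lipid and glucose metabolism, none reached an unadjusted p under 0.05, the median log2 ratio was 0.01, and 12 intervals lay within 1.5-fold. miR-33, which lies in the gene of the sterol regulator SREBP2 and lowers the cholesterol exporter ABCA1, had a log2 ratio of 0.14 ± 0.15. miR-378a, hosted by the coactivator gene Ppargc1b, stood at 12591 ± 916 CPM at ZT0 and 13087 ± 1036 at ZT12, with a log2 ratio of -0.04 ± 0.04. miR-370 and miR-103-1 of this list were too low to test. miR-107 had 0.07 ± 0.07 and miR-34a, a p53 target, had -0.25 ± 0.17. In the miR-15/16 family 1 of 7 members (miR-195a) had an unadjusted p under 0.05, the median was -0.04, and 6 intervals lay within 1.5-fold.

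Blood cell miRNAs had wider intervals than the liver-enriched ones. In bulk liver, fewer cells of a type and less RNA per cell cannot be told apart. Of 7 tested blood cell miRNAs 1 (miR-146a) had an unadjusted p under 0.05, the median log2 ratio was 0.15, and 4 intervals lay within 1.5-fold. The 7 include miR-21a, among the 10 most abundant liver miRNAs, with 5.06% of the counts at ZT0 and 4.90% at ZT12 (log2 ratio 0.06). Its source cells were not determined here. miR-223, of neutrophils and macrophages, stood at 54.8 ± 9.01 CPM at ZT0 and 48.9 ± 9.79 at ZT12 (log2 ratio 0.18 ± 0.12). miR-142a, common to blood cells, stood at 1330 ± 271 and 1210 ± 232 (0.15 ± 0.10). miR-150, of mature lymphocytes, stood at 128 ± 53.1 and 109 ± 41.1 (0.25 ± 0.18), and miR-342 at 64.8 ± 16.9 and 65.5 ± 18.0. The groups overlapped for each of miR-223, miR-142a, miR-150 and miR-342. Leaving out ZT0 replicate 3 lowered the log2 ratio of miR-223 to 0.11, that of miR-142a to 0.07 and that of miR-150 to 0.15. The median over all tested miRNAs fell as well, from 0.02 in the main fit to -0.02 in that fit. Without ZT0 replicate 9 miR-142a had 0.06, in a fit whose median was -0.01. For miR-155, of activated immune cells, a single library was high. ZT0 replicate 3 held 45.8 CPM, against 5.53 to 20.8 in the other 11 ZT0 libraries and 6.28 to 23.2 at ZT12. The log2 ratio of miR-155 was 0.43 ± 0.23, and 0.13 without that library (unadjusted p = 0.549, edgeR). The 4 red cell hairpins (miR-451a, miR-144, miR-486a, miR-486b) summed to a median of 887 CPM at ZT0, with a range of 619 to 1421, and to 1025 at ZT12, with a range of 816 to 2108. Their log2 ratios ran from -0.40 to -0.01.

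The contrast was measured in different animals in each passage, and the ratios of the passages did not line up. The first passage, 0 h against 12 h, gave 0 called miRNAs (0%) and 14 with an unadjusted p under 0.05 (5.43%), of which 13 (5.04%) were higher at ZT0. The second, 24 h against 36 h, gave 0 called (0%) and 18 with an unadjusted p under 0.05 (6.98%), of which 9 (3.49%) were higher. The whole set of ratios leaned to the higher side in the first passage, with a median of 0.05 and 167 of 258 above 0. In the second the median was -0.01 and 116 lay above 0. No miRNA was among both the 14 and the 18. The log2 ratio had the same sign in both passages for 123 of 258 miRNAs, and for 51 of the 97 at 100 CPM or more. Across the 258 miRNAs the ratios of the passages had a Pearson correlation of -0.10 and a Spearman correlation of -0.02, and across the 97 the Pearson correlation was 0.02. miRNAs of 1 set of libraries are not independent replicates. The difference between the passages was itself called for 0 miRNAs (0%), with 18 at an unadjusted p under 0.05 (6.98%) and a smallest adjusted p of 0.618 (edgeR).

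**Figure D3:**
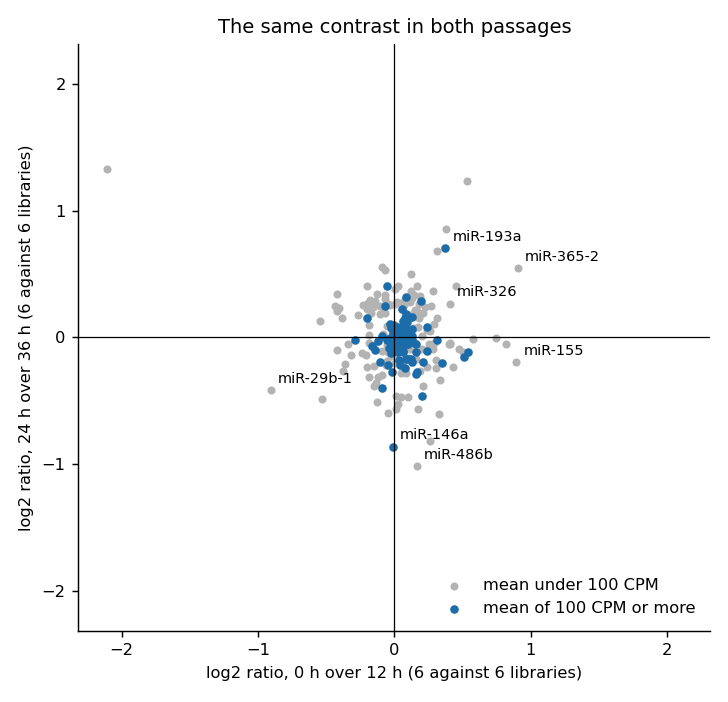
Fitted log2 ratio of each of the 258 tested miRNAs in the second passage (24 h over 36 h) against the first (0 h over 12 h), 6 libraries against 6 in each; blue points have a mean of 100 CPM or more. The Pearson correlation is -0.10, miR-193a and miR-365-2 lie on the higher side and miR-29b-1 on the lower side in both, and miR-146a lies at -0.01 in the first and -0.86 in the second.

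The ratios of the leaders are given for each passage. miR-193a had log2 ratios of 0.37 ± 0.33 in the first passage and 0.70 ± 0.33 in the second. miR-365-2 had 0.91 ± 0.33 and 0.55 ± 0.33, and miR-326 had 0.40 ± 0.17 and 0.27 ± 0.17. miR-130a had 0.10 ± 0.06 and 0.12 ± 0.06. miR-29b-1 had -0.91 ± 0.32 and -0.41 ± 0.32. None of these 5 was called in either passage. They were chosen by the ratio over both passages, so that a sign shared by the passages is largely fixed by that choice.

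For miR-146a the ratios of the passages lay apart, by less than the adjusted threshold. It averaged 1075 ± 272 CPM at 0 h and 1115 ± 268 at 12 h (n = 6 each), against 696 ± 140 at 24 h and 1272 ± 555 at 36 h. The log2 ratio was -0.01 ± 0.24 in the first passage and -0.86 ± 0.24 in the second, where it had the smallest adjusted p of either passage (0.146, edgeR). The second-passage libraries overlapped barely, with 423 to 796 CPM at 24 h and 776 to 2204 at 36 h. The difference between the passages was 0.85 ± 0.34 (unadjusted p = 0.0136, adjusted p = 0.618, edgeR). The passages also differed in L codes, with 2 libraries each of L2, L3 and L8 at 0 h against 4 of L8, 1 of L1 and 1 of L4 at 24 h. In L8 alone miR-146a held 738 and 934 CPM at 0 h, 924 in the single 12 h library, 423 to 796 at 24 h (n = 4) and 776 to 2204 at 36 h (n = 3). Passage and L code were not separated for the other libraries, and the part of the L code was not tested. miR-155 went the other way, with 0.90 ± 0.31 in the first passage, which includes the high library, and -0.19 ± 0.33 in the second. miR-223 had 0.41 ± 0.17 and -0.04 ± 0.17, and the red cell miRNA miR-486b 0.17 ± 0.35 and -1.01 ± 0.37.

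ZT6 against ZT18, the other pair of opposite times, was read from the same fit for the named miRNAs and shares no library with ZT0 or ZT12 (12 and 6 libraries). The ZT18 libraries were all collected at 18 h, whereas ZT6 joins 6 h and 30 h. The L codes differed too, with L1 present at ZT6 and absent at ZT18. The parts of collection and L code in this contrast were not tested. It called 7 of 258 miRNAs (2.71%), of which miR-203 and miR-5099 are given because they were called. Of the 7 blood cell miRNAs, 4 were called higher at ZT6 than at ZT18. That list was chosen with earlier results of these data known, so the count is not independent evidence about blood cells. miR-150 had a log2 ratio of 1.15 ± 0.24 (adjusted p = 8.72e-04), miR-342 one of 0.55 ± 0.15 (0.0192), miR-142a one of 0.51 ± 0.13 (0.00888) and miR-223 one of 0.64 ± 0.15 (0.00349, all edgeR). miR-29b-1 had 1.30 ± 0.27 (adjusted p = 8.72e-04), miR-5099 0.57 ± 0.12 (8.72e-04) and miR-203 -0.27 ± 0.08 (0.0352).

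**Figure D4:**
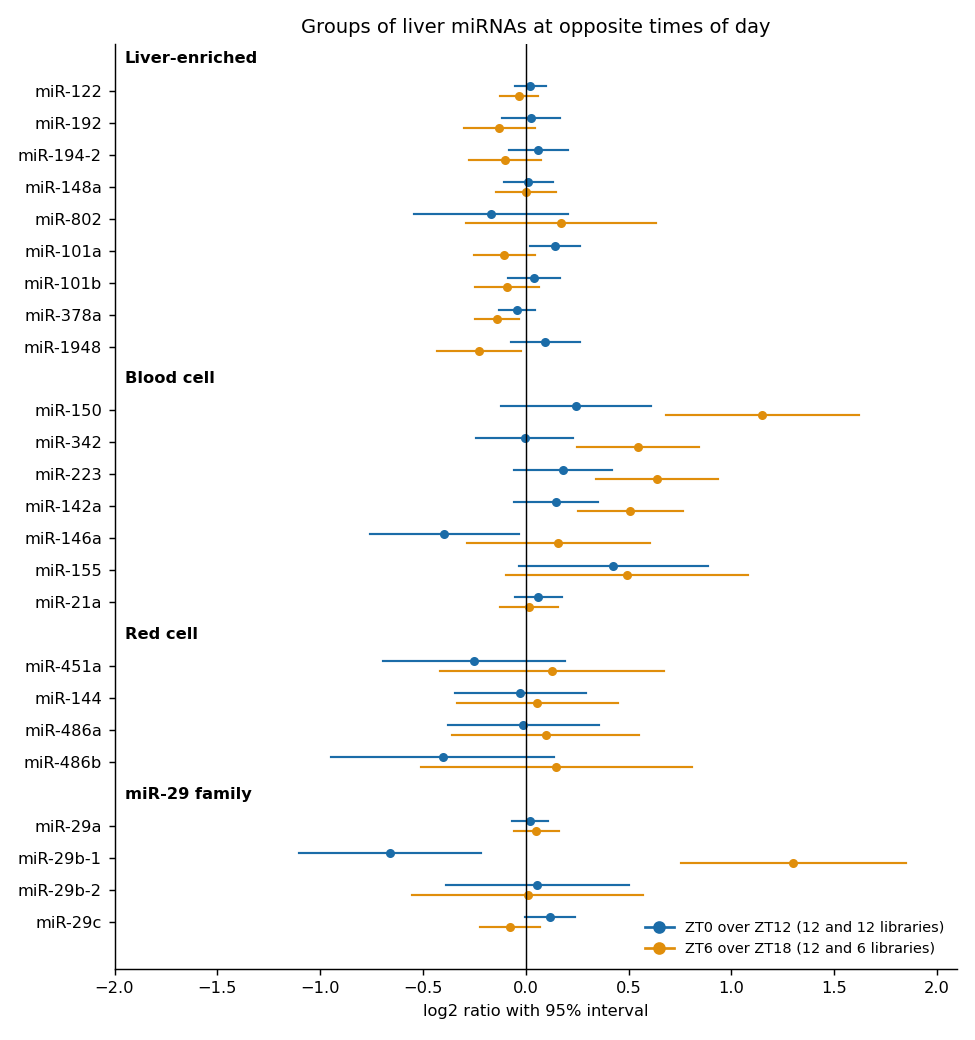
Fitted log2 ratio with its 95% interval for liver-enriched, blood cell, red cell and miR-29 family miRNAs, ZT0 over ZT12 (blue, 12 and 12 libraries) and ZT6 over ZT18 (orange, 12 and 6 libraries). The liver-enriched ratios lie close to 0 in both comparisons. In ZT6 over ZT18 the intervals of miR-150, miR-342, miR-223, miR-142a and miR-29b-1 lie above 0. With the times in the order drawn, a difference between the ratios was called for miR-29b-1 among these 5.

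Whether a miRNA's signed ratio of ZT0 over ZT12 differed from that of ZT6 over ZT18 was tested after the data were seen. The test called 2 of 258 (0.775%). The sign of a ratio depends on which time of the pair is put first, and that order is a choice. A test against ZT18 over ZT6 would give other differences and was not run. The differences do not compare the sizes of the contrasts. For miR-29b-1 the difference was -1.96 ± 0.35 on the log2 scale (adjusted p = 1.13e-04), and for miR-5099 -0.69 ± 0.15 (adjusted p = 0.00270, edgeR). For miR-150 the difference was -0.90 ± 0.29 (adjusted p = 0.188) and for miR-342 -0.55 ± 0.19 (0.208, both edgeR). No blood cell miRNA was called with the times in this order. By the group means of miR-29b-1 and miR-150, with no rhythm fitted, ZT0 came before the highest level of the day and ZT12 after it. The ZT15, ZT18 and ZT21 groups come from 15, 18 and 21 h only, and ZT15 holds no L8 library. miR-29b-1 averaged 3.04 ± 1.34 CPM at ZT0, 6.91 ± 1.87 at ZT6, 7.44 ± 2.63 at ZT9, 4.91 ± 1.07 at ZT12 and 2.05 ± 1.32 at ZT21. miR-150 averaged 128 ± 53.1 at ZT0, 195 ± 70.0 at ZT6, 109 ± 41.1 at ZT12 and 58.7 ± 15.9 at ZT15.

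**Figure D5:**
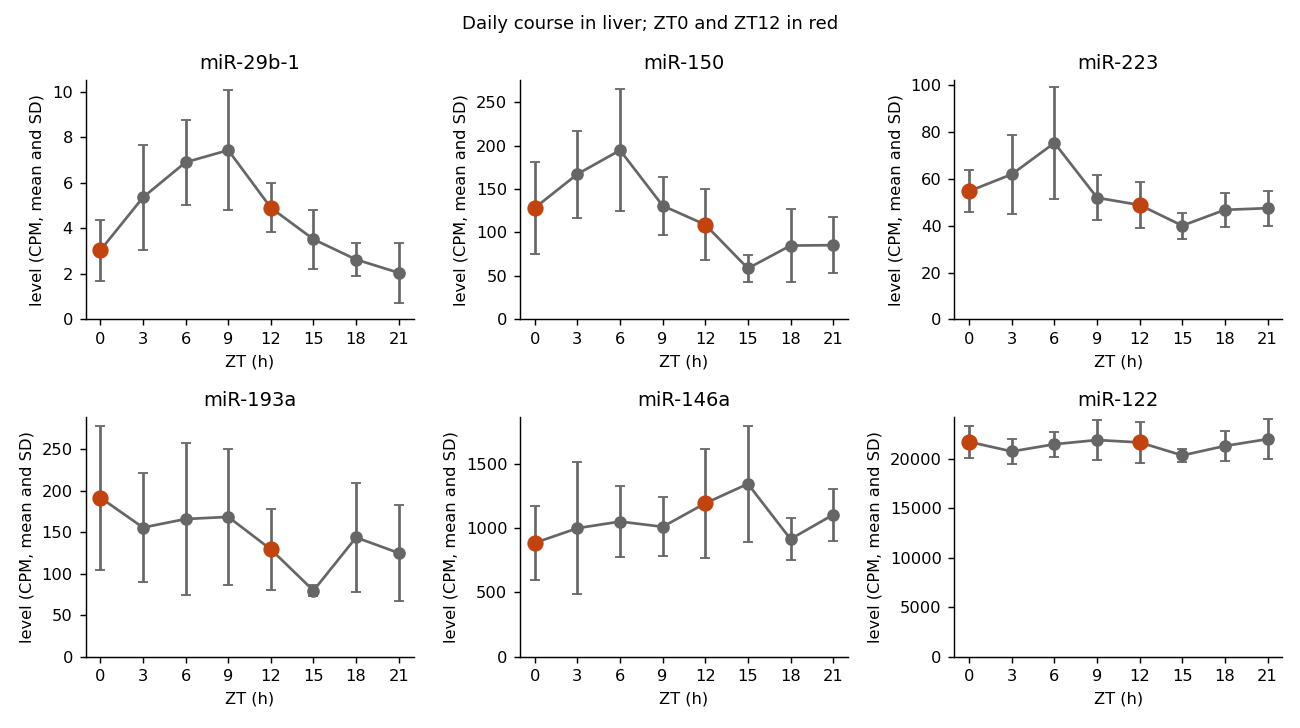
Mean level in CPM with SD over the libraries of each ZT group (6 to 12 libraries) for 6 liver miRNAs against ZT in hours, with ZT0 and ZT12 in red. By the means, with no rhythm fitted, ZT0 and ZT12 lie at like levels before and after the highest point for miR-150 and miR-223. The highest mean of miR-29b-1 is at ZT9 with 7.44 CPM, and miR-122 stays between 20321 and 21961 CPM.

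The same contrast was set against brain tissue in joint fits. The tissues come in part from the same animals, which these fits do not model. Against cortex, 0 of 431 miRNAs (0%) had a different ratio by edgeR, with 33 at an unadjusted p under 0.05 (7.66%). miR-29b-1 had log2 ratios of -0.66 ± 0.22 in liver and 0.02 ± 0.13 in cortex, a difference of -0.77 ± 0.25 in the joint fit (adjusted p = 0.313). miR-5099, lower at ZT0 than at ZT12 in cortex (-0.45 ± 0.09, adjusted p = 0.00361) and hypothalamus (-0.55 ± 0.11, adjusted p = 7.36e-04), was at -0.12 ± 0.09 in liver (adjusted p = 0.845, edgeR). The liver ratio was not shown to differ from either, with differences of 0.24 ± 0.15 (adjusted p = 0.623) and 0.38 ± 0.15 (adjusted p = 0.427).

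Against hypothalamus 4 of 441 miRNAs were called (0.907%), namely miR-122, miR-375, miR-141 and miR-200c, and all 4 rested on single hypothalamus libraries. The log2 differences, liver minus hypothalamus, were -2.14, -4.15, -3.33 and -3.31. Hypothalamus ZT0 replicate 9 held 111518 CPM of miR-375, against a ZT0 median of 745, and ZT0 replicate 12 held 58.4 CPM of miR-122, against a median of 1.77. Without replicate 9 only miR-122 was called, and without replicate 12 the difference of miR-122 was -0.51 (adjusted p = 0.912). In liver itself miR-375, an endocrine cell miRNA, stood at 9.07 ± 2.32 CPM at ZT0 and 8.25 ± 1.94 at ZT12.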

How the data were processed

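The authors deposited whole-number counts per miRNA hairpin and library, not normalized. STAR 2.7.3a, HTSeq 0.10.0 and GRCm38 (mm10) are named in the submitters' processing notes. How reads were trimmed, and how reads matching several hairpins were counted, is not given in the sources used here. Liver counts (1226 hairpins, 373 with none in liver) were tested with edgeR 4.0.16 in R 4.3.3 (TMM, filterByExpr, quasi-likelihood) on all 77 liver libraries with ZT as an 8-level factor, or with time point as a 13-level factor for the passages; tissue differences were interactions. Adjusted p-values follow Benjamini and Hochberg over all miRNAs tested, with 0.05 as the threshold, and intervals are at 95%. Log2 ratios are coefficients without shrinkage. Scripts were checked on simulated data. DESeq2 1.42.0 and limma 3.58.1 voom were alternatives, beside other scalings, filters, terms, and each of the 24 libraries left out. The text names the 15 miRNAs with the smallest p at a mean of at least 10 CPM (since none was called), the 10 most abundant, and the members of 7 lists. The members and lists were chosen with earlier results of these data known. A permutation test was planned for called miRNAs only and was not run. Positions came from GENCODE M21 and RefSeq GRCm38.p6; of the 258 tested hairpins, 226 had a sequence. Striatum was not used. Whether equal replicate numbers pair the groups was checked by the correlation of their deviations from the group means, which ran from -0.10 to 0.37 with 3 of 12 over 0.1, and the numbers were not taken as pairs. Plots used Python 3.11.15 and matplotlib 3.10.9.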

Additional observations from a re-analysis of the deposited data

Results flagged for a closer look

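Among the 15 leading miRNAs, miR-365-2 and miR-29b-1, 68 groups of 6 libraries at 1 time point were examined for a library far from the other 5, and 4 had one; chance alone marks about 5% of such groups. miR-326 was highest in ZT0 replicate 3 at 0 h, with 51.42 CPM against 32.18 in the next library. This is also the library that was high in miR-155. ZT0 replicate 12 was the lowest of the 24 h libraries for miR-130a, with 1137 CPM against 1308, and for miR-193a, with 126.4 CPM against 237.7; it is the only ZT0 library with the code L4. miR-146a was lowest in ZT0 replicate 1 at 24 h, with 422.8 CPM against 689.2.

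A different ratio in liver and hypothalamus was found by the interaction test for miR-122 (-2.139, adjusted p = 0.001064), miR-375 (-4.153, adjusted p = 0.001064), miR-141 (-3.33, adjusted p = 0.01568) and miR-200c (-3.314, adjusted p = 0.04538, edgeR). Hypothalamus ZT0 replicate 9 also held 7807 CPM of miR-141 and 511.8 CPM of miR-200c, against medians of 98.3 and 5.63.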

How the results depend on the processing

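The count of called miRNAs between ZT0 and ZT12 was 0 under all 13 alternatives and in all 24 fits that left out 1 library. The number with an unadjusted p under 0.05 was 48 of 853 with no filter, 9 of 175 at a mean of at least 10 CPM, 12 with library totals, 11 with limma voom, 24 with the L code as a term, and 11 to 20 with 1 library left out. The smallest adjusted p was 0.104 (miR-365-2, without ZT12 replicate 1). The share of miRNAs above 0 depended on the scaling, with 150 of 258 under TMM, 136 under DESeq2 size factors or library totals and 162 under upper quartile scaling. Over 33 named miRNAs 19 of 426 alternative values changed sign, all of them uncalled, and none became called. Of 36 named or listed miRNAs with an absolute log2 ratio of at least 0.1, 18 moved by over 1.5 times without 1 library, none changed sign and none was called.

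With the replicate number as a block 0 miRNAs were called and 18 had an unadjusted p under 0.05, and the smallest adjusted p was 0.215 (miR-193a). The numbers did not pair the samples, since 2 of 12 libraries correlated best with their own number. They ran partly with the L code, as replicates 1 to 4 were L8 and replicate 12 was L4 in both groups. The block is therefore not separate from the L code.

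The count against hypothalamus ran from 1 to 7 with 1 hypothalamus library left out, an alternative chosen after seeing the data, and was 3 with no filter; against cortex and between passages it was 0 with no filter. Depth limits the miRNAs under 10 CPM, where 3 counts correspond to up to 1.51 CPM.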
